A study of Sus scrofa with 23 samples.

Results

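The first cleavage of pig embryos fertilized in vivo was followed by setting the IV-D 2-cell library, from embryos collected 24 h after insemination, against the IV-D 1-cell library, from embryos collected 12 h after insemination. These were 2 of the 23 libraries analysed. Both held Duroc embryos of the same sire, a 1-year-old Duroc boar. They were collected from inseminated Duroc sows by flushing the tract, and chosen for normal morphology. Each sample pooled male and female embryos of a stage taken from a sow, and embryos were not sexed. Differences between dams therefore cannot be told apart from differences between stages. The zona pellucida was removed, several embryos were pooled, and polyadenylated RNA was amplified as cDNA with SMART-Seq v4. There was 1 library per stage, so no value below has a replicate error and no test between the stages could be made. The other IV-D libraries were of MII oocytes of 2-year-old Duroc sows, 4-cell and 8-cell embryos, morulae, a blastocyst part holding ICM and TE (IT) and TE alone. The same step was also read in cloned embryos, made in oocytes of hybrid sows matured in vitro. Their donors were ear fibroblasts of a Duroc boar (NT-D, the sire of the IV-D embryos) and of a 1-year-old Laiwu boar (NT-LW). Clones were activated by electric pulses, cultured in vitro under low oxygen, and all male. IV-D embryos developed in the tract, so origin, culture and sex cannot be told apart between clones and IV-D embryos. Levels are the deposited FPKM values, fragments per kilobase of transcript, scaled to library depth, and depth was 16603983 fragments in the 1-cell and 22991067 in the 2-cell library.

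A fertilized egg inherits its RNA and proteins from the oocyte and begins to divide with its own genome largely silent. Maternal transcripts are stored with short or masked poly(A) tails, recruited to translation by lengthening of the tail, and removed by deadenylation through the CCR4-NOT complex. The main activation of the embryonic genome in the pig is placed at the 4-cell stage, so the first cleavage is mostly a time of maternal RNA handling. Because the libraries start from poly(A) tails, loss of a transcript and shortening of its tail cannot be told apart here, nor can synthesis and lengthening.

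On the deposited values more transcripts were lost than gained, a balance that turned after median-ratio scaling. Of 6706 genes that reached FPKM 1 in either library, 1652 were lower (24.6%) and 442 higher (6.59%) in 2-cell embryos by more than 1 on the scale of log2(FPKM + 1), and 4612 stayed within that limit. A gene is said to have fallen or risen below only if it passed this fold rule. Genes past 2 on the same scale numbered 240 among the falls and 70 among the rises. The median difference over all genes compared was -0.41, so the library as a whole shifted downward. Genes at FPKM 1 or more numbered 6163 in oocytes and 6534, 5931 and 7055 in 1-cell, 2-cell and 4-cell embryos. FPKM 1 was crossed downward by 775 genes, 329 of them with a fall past the fold rule, and upward by 172 genes, 75 of them with a rise.

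**Figure D1:**
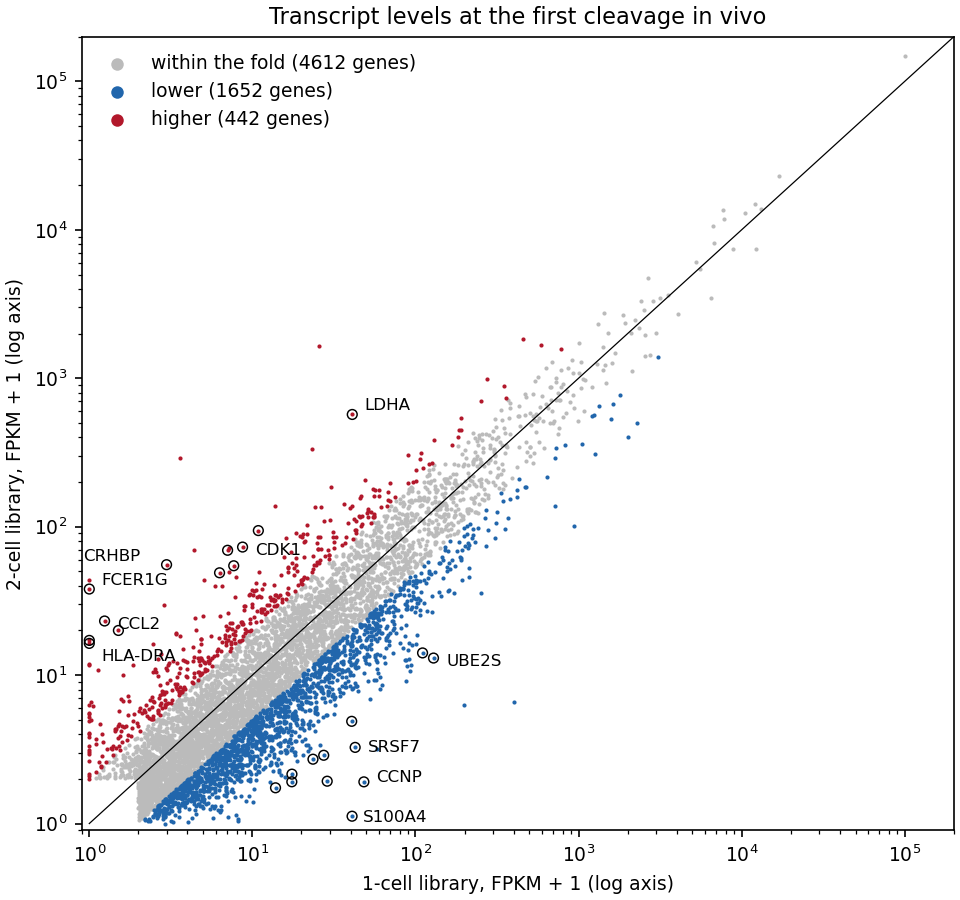
FPKM values plus 1 of each gene in the 1-cell library (x axis) and the 2-cell library (y axis), both on log axes, with genes lower, higher and within the fold rule in different colours and some named genes labelled. The 1652 lower genes lie below the diagonal and outnumber the 442 higher genes above it on these deposited values, whereas after median-ratio scaling 880 are lower and 1163 higher.

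FPKM values are shares of a library, and a few transcripts took a larger share after cleavage. The 10 most abundant genes of each library held 36.7% of the summed FPKM of the table in 1-cell and 46.0% in 2-cell embryos. A gene without a symbol, ENSSSCG00000000296, was alone at 100045 and 147423, or 18.7% and 25.7% of the sum. The 13 genes of the mitochondrial genome held 13.4% and 14.9%. COX3, a subunit of cytochrome c oxidase, was at 16959 in 1-cell against 22901 in 2-cell embryos, and AKIRIN2, which carries proteasomes into the nucleus, at 7657 and 13653. Neither passed the fold rule, nor did UBB, a ubiquitin precursor, at 12188 and 7399.9.

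Scaling the libraries by the median ratio over genes divides out such a shift. With that scaling, over all 23 libraries, the size factor of the 2-cell library was -0.57 relative to the 1-cell library on the log2 scale, and the median difference became 0.07 once values were divided by it. The balance of calls then turned, with 1163 genes higher and 880 lower of 7000 compared. Of those, 442 higher and 878 lower genes were also called on the deposited values. The 24 genes of largest change described next passed the fold rule in the same direction on both scales. Each differed by at least 2.8, far more than the scaling factor, so this followed from their choice and is no support. The data do not hold a measure of RNA per embryo, so which scale is nearer to the amount of a transcript per embryo was not tested.

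The genes with a symbol that fell most, among those at FPKM 10 or more, included factors of splicing, ubiquitin transfer and poly(A) binding. SRSF7 (ENSSSCG00000008484, chromosome 3, 101599429 to 101608786), a serine and arginine-rich splicing factor, was at 40.9 in oocytes and 41.7, 2.26 and 881 in 1-cell, 2-cell and 4-cell embryos. It fell 18.5-fold at the first cleavage and was low at the 2-cell stage alone of the 8 IV-D libraries. U2AF1, which binds the 3' splice site, fell from 109.6 to 13.1 and was at 42.5 in 4-cell embryos. UBE2S (ENSSSCG00000035344), the E2 enzyme that elongates ubiquitin chains for the anaphase-promoting complex, fell from 128 to 12.03, after 90.1 in oocytes and before 109 in 4-cell embryos. These transcripts were lowest in the 2-cell library and higher in all the later IV-D libraries.

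CCNP and RFFL fell and were low in the 4-cell library as well. CCNP (ENSSSCG00000002990), a cyclin of the P type, fell from 47.3 in 1-cell to 0.909 in 2-cell embryos, 52.00-fold on 676 and 18 fragments. Its level had been 34.7 in oocytes and was at most 0.659 in every later library. PABPN1L (ENSSSCG00000036367), a poly(A)-binding protein of oocytes and early embryos, fell from 26.4 to 1.88, was at 12.1 in 4-cell embryos and had 0 fragments from the 8-cell stage on. RFFL (ENSSSCG00000032552), a ubiquitin ligase, fell from 39.7 to 3.88 and was at 2.08 in 4-cell embryos. RSPH3, a radial spoke protein, fell from 27.8 to 0.929. POFUT1, which adds fucose to Notch receptors, fell from 16.5 to 0.911, MFSD14B, a membrane transporter, from 22.5 to 1.71, and UQCC5, an assembly factor of respiratory complex III, from 16.5 to 1.15. In oocytes these 4 genes were at 2.47, 5.82, 3.37 and 7.04, below their 1-cell levels.

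S100A4 and S100A6, small calcium-binding proteins of mesenchymal and epithelial cells, complete the 12 largest falls. S100A4 was at 0 in oocytes and 39.9, 0.1205 and 0 in 1-cell, 2-cell and 4-cell embryos. The 2-cell value rests on 2 fragments, with a 95% counting interval of 0.000365 to 0.01098 for the ratio of 2-cell to 1-cell. S100A6 was at 0 in oocytes and then 12.9 and 0.741 in 1-cell and 2-cell embryos. Thus the 1-cell library stood above both of its neighbours for this pair. Counting intervals here cover the sampling of fragments only, since amplified reads without molecular identifiers are not independent molecules.

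Among the 12 largest rises were enzymes and regulators that the oocyte already held. LDHA (ENSSSCG00000013366, chromosome 2, 40814163 to 40827284), the A subunit of lactate dehydrogenase, was at 23.1 in oocytes and 39.98, 569 and 71.02 in 1-cell, 2-cell and 4-cell embryos. It rose 14.2-fold (95% counting interval 13.4 to 15.1), and no other IV-D library had as high a level. CDK1 (ENSSSCG00000010214), the kinase that drives entry into mitosis, was at 12.4 in oocytes and 7.71, 71.9, 108 and 869 in 1-cell, 2-cell, 4-cell and 8-cell embryos. It rose 9.33-fold at the first cleavage (8.35 to 10.5), and its level was higher still in each of the 2 libraries that followed. NDUFA8, a subunit of respiratory complex I, rose from 6.05 to 68.4 and was at 19.2 in 4-cell embryos.

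CRHBP, KCNIP4 and GNAT2 showed a dip at the 1-cell stage. CRHBP (ENSSSCG00000014093, chromosome 2, 85814399 to 85830598), the binding protein of corticotropin-releasing hormone, was at 33.3 in oocytes and 1.98, 54.5 and 5.99 in 1-cell, 2-cell and 4-cell embryos. KCNIP4, a calcium-binding partner of potassium channels, was at 38.4, 9.88, 93.2 and 28.6 in the same libraries. GNAT2, the transducin subunit of cone cells, was at 4.75, 0.508, 18.99 and 5.32, on 8 fragments in 1-cell embryos. For these 3 genes the 2-cell level was above that of the oocyte, with the 1-cell level below both. TMEM69 rose from 5.29 to 47.9 and PDZD11 from 6.69 to 53.6.

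**Figure D2:**
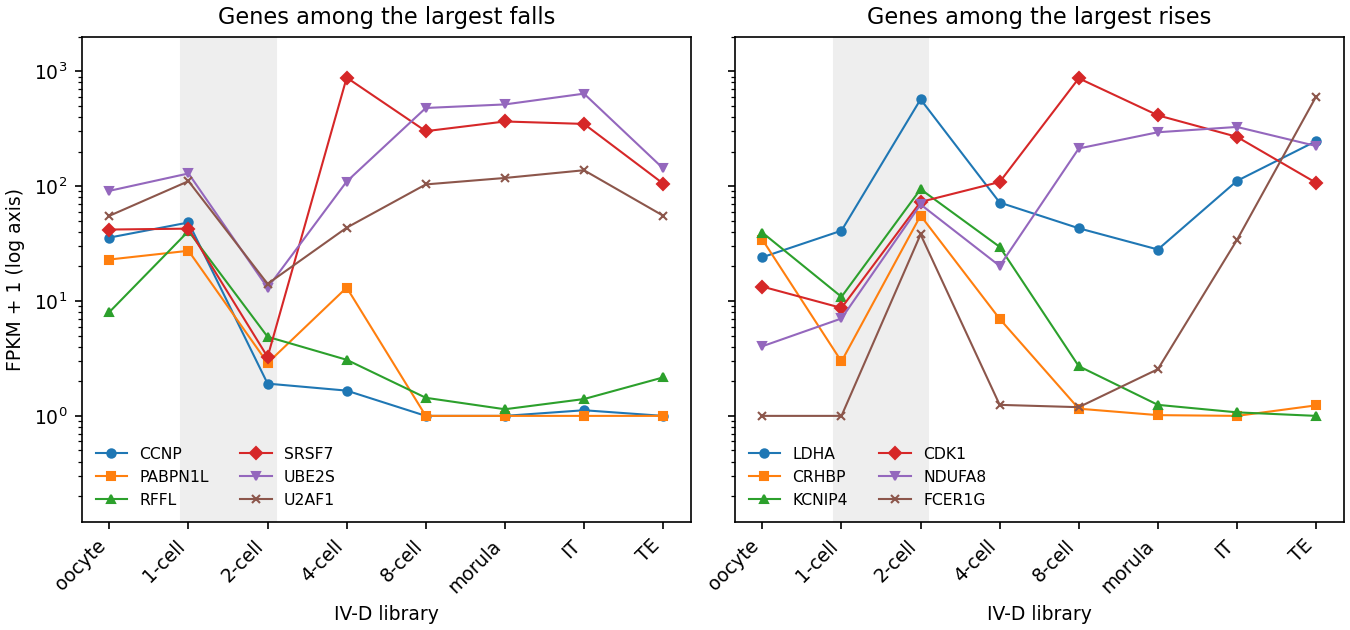
FPKM plus 1 (log axis) in the 8 IV-D libraries for 6 of the 12 largest falls (left) and 6 of the 12 largest rises (right), 1 point per library, with the 1-cell and 2-cell libraries shaded. SRSF7 returns from 2.26 in 2-cell to 881 in 4-cell embryos, while CRHBP dips to 1.98 in 1-cell embryos between 33.3 and 54.5.

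The remaining 4 of the largest rises were genes with immune functions. FCER1G, the gamma chain of Fc receptors, had 0 fragments in oocytes and 1-cell embryos, 651 in 2-cell embryos (FPKM 37.01) and was at 0.247 in 4-cell embryos. Set against the level that 3 fragments would give in the 1-cell library, it was at least 157-fold higher in 2-cell embryos. HLA-DRA, the alpha chain of an MHC class II molecule, and C4BPA, a regulator of complement, had 0 fragments in the 1-cell library and FPKM values of 16.1 and 15.4 in the 2-cell library, at least 129-fold and at least 232-fold higher. CCL2, a chemokine, was at 0.241 and 22.2, on 3 and 382 fragments, a ratio of 91.96 with a counting interval of 31.2 to 448. HBB, a globin chain of red blood cells, was at 0.135 and 9.82 (ratio 72.6, interval 19.8 to 603, 2 fragments in the 1-cell library), and AIF1, a macrophage marker, at 0 and 1.65. None of these 6 genes was above 2.06 in the 1-cell and 2-cell libraries of clones, or above 0.741 in the IV-D oocyte and 4-cell libraries, and FCER1G was at 601 in TE.

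Markers of other cells thus differed between the 2 libraries, in opposite directions. Of the list of oviduct, blood and connective tissue markers 10 genes were compared, of which 3 rose (HBB, AIF1 and FCER1G) and 5 fell. The summed FPKM of the 11 in the table was 56.7 in the 1-cell and 68.6 in the 2-cell library. Connective tissue transcripts were the ones that fell, with COL1A1 at 0.0966 in oocytes and then 4.76 and 0.0896 in 1-cell and 2-cell embryos, COL1A2 at 0.834, 9.31 and 1.401, COL3A1 at 0.234, 4.05 and 0.408, and ACTA2 at 0.416, 4.66 and 0.313. CDH1, the E-cadherin of epithelia, was the fifth, from 12.3 to 3.61. PECAM1, of blood and endothelial cells, at 5.23 and 6.34, and EPCAM, of epithelia, at 15.7 and 7.70, stayed within the fold rule. Of the cumulus cell markers 9 were compared, 5 fell (the 3 collagens with VIM and LGALS1) and 0 rose. The summed FPKM of the 12 in the table was 163 and 200, most of it from VCAN at 102 and 171, while HAS2, a hyaluronan synthase of the expanding cumulus, had 0 and 3 fragments. Of the sperm and testis markers 5 were in the table, with a sum of 38.3 and 195, set by LDHC, a testis and oocyte form of lactate dehydrogenase that rose from 29.2 to 185. The part of other cells in these differences was not tested, and in pools of embryos fewer cells of a type cannot be told apart from less RNA per cell. Without all genes of these 3 lists the counts were 438 higher and 1645 lower.

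Genes first seen at the 2-cell stage were few. Of genes under FPKM 1 in both oocytes and 1-cell embryos, 102 were above 1 in 2-cell embryos, 12 of them at 5 or more, and 32 were under 1 again in 4-cell embryos. Of these 102, 71 had a symbol. The 6 with a symbol and the highest 2-cell level were FCER1G, CCL2, HLA-DRA, C4BPA, HBB and MYOC, a secreted protein of the eye, from 0.7403 to 5.68. Of the 442 genes that rose 376 were at FPKM 1 or more in oocytes (85.1%), against 90.1% of the genes that fell and 91.1% of those within the fold rule. The median level of the 442 was 9.63 in oocytes and 6.05, 19.1 and 15.9 in 1-cell, 2-cell and 4-cell embryos. The median level of the 1652 genes that fell was 6.92 in oocytes and 12.6, 3.45 and 6.03 in 1-cell, 2-cell and 4-cell embryos, and 164 of them were under 1 in oocytes. In both groups the oocyte median lay between those of the 1-cell and the 2-cell library, which in part follows from choosing the genes by these 2 libraries.

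Transcripts that mark the oocyte were called lower more often than all genes, though their median was not lower. Of 23 genes of the list of oocyte and maternal-effect transcripts compared, 9 fell (39.1%, against 24.6% of all genes) and 1 rose. The other 13 did neither, a smaller part than the 4612 of 6706 over all genes. The median difference of the 23 was -0.32 against -0.41 over all genes, and 0.25 against 0.07 after median-ratio scaling. The medians of the lists that follow are to be read against the same -0.41 and, in brackets after median-ratio scaling, 0.07. Counts of falls and rises in these lists are to be read against 24.6% and 6.59% of all genes. All 23 had more than 3 fragments in both libraries. Coat proteins of the zona pellucida were among the falls, with ZP3 at 15.5 in oocytes and then 41.6 and 7.82 in 1-cell and 2-cell embryos, and ZP2 at 129, 158 and 36.1. KPNA7, the importin of oocytes, fell from 1253 to 309 and PADI6, a component of the cytoplasmic lattices, from 50.98 to 12.5. H1-8, the oocyte linker histone, fell from 1787 to 771, but was inside the fold rule after median-ratio scaling, at -0.64. Genes that stayed within the fold rule were the growth factors GDF9, at 23.9 and 31.3, and BMP15, at 55.1 and 52.04, and OOEP, a maternal-effect protein, at 2564 and 1413. The rise was that of YBX2, which binds and masks stored mRNA, from 1.63 to 4.77. Members of lists outside the rule for named genes, such as GDF9, BMP15 and YBX2, were named after their values were seen.

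Genes that remove and mask maternal RNA were next compared. BTG4, the adaptor that brings CCR4-NOT to maternal transcripts, was at 6335 in oocytes and 5585, 5469 and 1169 in 1-cell, 2-cell and 4-cell embryos, within the fold rule at the first cleavage. Of 53 genes of deadenylation, uridylation and decay, 16 fell (30.2%, against 24.6% of all genes) and 0 rose, with a median of -0.48 (-0.01 after median-ratio scaling). The falls included TOB1, another adaptor of the deadenylase, from 31.3 to 5.33, EXOSC5, a subunit of the RNA exosome, from 23.3 to 3.200, and LSM5, of the decapping complex, from 355 to 95.1. Of 29 genes of poly(A) binding, masking and cytoplasmic polyadenylation, 14 fell and 1 rose (YBX2), with a median of -0.91 (-0.48). CPSF4, of the polyadenylation complex, fell from 17.7 to 1.63. PABPC4, a cytoplasmic poly(A)-binding protein, fell from 12.1 to 1.61, and YBX1, a masking protein, from 125 to 25.8 before 155 in 4-cell embryos.

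Cell cycle genes moved in both directions, in shares near those of all genes. Of 41 cyclins, kinases and phosphatases 13 fell (31.7%, against 24.6% of all genes) and 3 rose (7.32%, against 6.59%). The median was -0.43 (0.12 after median-ratio scaling). The rises were CDK1, CCNB2, a B-type cyclin, from 44.4 to 115, and CCNE2, a cyclin of the entry into S phase, from 0.535 to 2.12. CCNB1, the main partner of CDK1, was at 557 and 517, within the fold rule. Among the falls were MOS, WEE2 and PLK3. MOS, which holds the egg in metaphase, was at 142 in oocytes and 173, 34.5 and 91.8 in 1-cell, 2-cell and 4-cell embryos, and WEE2, the oocyte inhibitor of CDK1, at 417, 1046, 359.7 and 331. PLK3, a polo-like kinase, went from 5.42 to 0.306. After median-ratio scaling the difference of WEE2 was -0.97, inside the fold rule.

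Of 23 genes of the anaphase-promoting complex and cell-cycle ubiquitin ligases 7 fell and 2 rose, with a median of -0.53 (0.03). SKP1, the adaptor of SCF ligases, rose from 272 to 994, and FBXO5, the inhibitor of the anaphase-promoting complex, from 24.4 to 69.5. UBE2C, the E2 enzyme that starts chains for that complex, fell from 727 to 336, in the same direction as UBE2S, which extends them. UBE2C was inside the fold rule after median-ratio scaling (-0.54) and after centring on coding GC content (-0.21). UBE2S stayed past it, at -2.79 and -2.18. Of 63 kinetochore, spindle and kinesin genes 7 rose and 9 fell, with a median of -0.09 (0.40). The 7 rises were 11.11% of the genes compared, against 6.59% of all genes, but after centring on coding GC content (median 42.9% in the list) 6 of 62 were higher against 609 of all 5424. They were CENPK, from 129 to 385, CENPQ, NUF2, SPC25, MIS12 and ZWILCH of the kinetochore, and HMMR, a spindle protein, from 357 to 732. Each of the 7 had been higher in oocytes than in 1-cell embryos, which in part follows from choosing genes that were low in the 1-cell library. INCENP, the scaffold of Aurora B, fell from 3.74 to 0.554 and KIF20A, a kinesin of cytokinesis, from 20.9 to 5.64.

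Of 50 replication genes 13 fell and 1 rose (TIPIN, of the fork protection complex, from 55.1 to 115), with a median of -0.38 (0.16). The helicase subunits MCM5 and MCM2 fell from 12.1 to 1.52 and from 16.4 to 3.23. Of 48 repair and checkpoint genes 12 fell and 1 rose, with a median of -0.11 (0.42). BARD1, a ubiquitin ligase subunit of DNA repair, fell from 24.5 to 8.68, and RECQL, a helicase, rose from 3.37 to 8.78. After median-ratio scaling BARD1 was inside the fold rule, at -0.88.

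Lists of chromatin modifiers had falls and no rises on the deposited values, where 24.6% of all genes fell and 6.59% rose. The share of falls was 43.3% for lysine methylation, 32.4% for acetylation and remodelling, and 54.5% for DNA methylation. For histones and their chaperones it was 27.3%, near that of all genes. A list of 11 genes is too short to set 0 rises apart from 6.59%. Of 30 histone lysine methyltransferases and demethylases 13 fell, with a median of -0.83 (-0.51 after median-ratio scaling). SETD1A, an H3K4 methyltransferase, fell from 6.301 to 1.002 and KDM5A, an H3K4 demethylase, from 13.2 to 2.99. Of 37 genes of acetylation and remodelling 12 fell, with a median of -0.84 (-0.47), among them the deacetylase HDAC3, from 13.9 to 1.11, and the acetyltransferase KAT2A, from 14.9 to 2.11. Of 11 genes of DNA methylation 6 fell, with a median of -1.02 (-0.85). DNMT3A and DNMT3B, which methylate DNA de novo, fell from 20.1 to 6.58 and from 11.2 to 2.81. DNMT3A was just inside the fold rule after median-ratio scaling, at -0.99. DNMT1, the maintenance enzyme, was at 2971 and 2029.9 and did not pass the fold rule. Of 11 histones and their chaperones 3 fell and 0 rose, with a median of -0.70 (-0.20).

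The lists of gene expression machinery had few rises. Of 57 genes of RNA polymerase II and its factors 18 fell and 1 rose (POLR2H, a shared polymerase subunit, from 3.62 to 9.45), with a median of -0.56 (-0.01). MED20 and MED15, subunits of Mediator, fell from 11.9 to 0.894 and from 16.02 to 2.72, and CDK9, the elongation kinase, from 19.2 to 3.43. Of 57 splicing factors 16 fell (28.1%, against 24.6% of all genes) and 1 rose, with a median of -0.42 (0.10). SF3B2, of the U2 particle, fell from 16.1 to 2.14, and the rise was SRSF10, from 14.3 to 29.9, a relative of the SRSF7 that fell. Of 42 cytosolic ribosomal proteins 19 fell and 0 rose, or 45.2% falls against 24.6% of all genes, with a median of -0.91 (-0.45). After centring on coding GC content 5 of the 42 were lower and 2 higher, and in NT-D clones 2 of 42 were lower. RPL37 was at 79.3 and 15.4, RPL7A at 38.6 and 9.57, and RPL27 at 47.6 and 12.3. Ribosomal protein genes have many processed copies, which makes their counts less certain. Of 38 translation factors 11 fell and 1 rose, with a median of -0.46 (-0.07). The rise was ABCE1, which recycles ribosomes, from 14.04 to 46.2, and EIF4G2 fell from 188 to 58.9.

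Energy, protein turnover and sterol genes were mixed. Falls were 28.8% for nuclear oxidative phosphorylation, 23.5% for the proteasome and 18.2% for cholesterol genes, against 24.6% of all genes. Chaperones had 12.8% and the mitochondrial genome 0%. Rises were 7.69%, 2.94%, 9.09%, 0% and 15.4% in the same order, against 6.59% of all genes. Of 52 nuclear genes of oxidative phosphorylation 15 fell and 4 rose (NDUFA8, NDUFS4, UQCRQ and NDUFA5), with a median of -0.59 (-0.08). NDUFB1, of complex I, fell from 102 to 17.5, opposite to NDUFA8 of the same complex. Of the 13 mitochondrially encoded genes 2 rose and 0 fell, with a median of 0.42 (0.99). The rises were ND4L, from 455 to 1841, and ATP8, from 59.05 to 177, both of which overlap a neighbouring gene and are uncertain for that reason. Of 34 proteasome genes 8 fell and 1 rose (PSMD12), with a median of -0.53 (-0.02), and PSMD8, a subunit of its cap, fell from 55.7 to 12.8. Of 47 chaperones 6 fell and 0 rose, with a median of -0.05 (0.45), HSPA5, of the endoplasmic reticulum, being the largest fall, from 23.2 to 6.14. Of 11 cholesterol genes 2 fell, INSIG1 from 9.96 to 1.43 and FDFT1, squalene synthase, from 477 to 183. HSD17B7 rose from 54.4 to 160.0, and the median was -0.66 (-0.13). FDFT1 was inside the fold rule after median-ratio scaling, at -0.81.

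The list of early transcription factors had a share of falls near that of all genes on the deposited values. Of 17 early zygotic and pluripotency factors compared 5 fell (29.4%, against 24.6% of all genes) and 0 rose (against 6.59%). With 17 genes, 0 rises is not far from that share. The median of the list was -0.69 (-0.18). The falls were NFYA, a CCAAT-binding factor, at 3.72, 1.05 and 55.99 in 1-cell, 2-cell and 4-cell embryos, TFAP2C, at 2.28, 0.578 and 25.6, CTCF, at 7.56, 3.11 and 31.04, YAP1, at 49.7, 19.9 and 5.55, and GATA4, at 6.21, 1.47 and 0.491. NFYA, TFAP2C and CTCF were far higher in the next library, and YAP1 and GATA4 lower. OTX2 was at 41.9 and 82.1, just inside the fold rule. After median-ratio scaling NFYA, TFAP2C, CTCF and YAP1 were inside it, at -0.93, -0.88, -0.63 and -0.74, while OTX2 was past it upward, at 1.52. After centring on coding GC content 0 of the 17 were lower and 2 higher. Of 8 immediate early genes 5 fell and 0 rose, with a median of -1.30 (-0.95). Their median coding GC content was 62.3%, and after centring on it 2 of the 8 were lower, with a median of -0.24. FOS was at 0 in oocytes and then 7.199 and 0.0323 in 1-cell and 2-cell embryos, on 2 fragments in the last (ratio 0.00449, counting interval 0.000541 to 0.0163), and DUSP1, a phosphatase of MAP kinases, was at 0.914, 7.55 and 0.522. Of 5 trophectoderm and later markers 3 fell, with a median of -1.06 (-0.88), among them LGALS3, a galectin, from 251 to 34.7. After centring 1 of the 5 was lower, with a median of -0.19.

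The base composition of the coding sequence, which the fold rule does not use, differed between falls and rises. A RefSeq coding sequence (Sscrofa11.1) was matched by symbol to 5424 of the genes compared. Its GC content had a median of 54.3% in genes that fell, 44.9% in genes that rose and 47.2% in those within the fold rule. Examples were picked at the extremes of this trait. They are the 3 genes of highest coding GC content among the 12 largest falls and the 3 of lowest among the 12 largest rises. Their first 120 coding bases are given from the ATG, with G and C in capitals. Of each 12, the 10 with a coding sequence were ranked. The medians of these 10 were 58.4% for the falls and 49.0% for the rises, so the choice widened the contrast. PABPN1L lies at chr6:854605-861969 on the + strand, UBE2S at chr6:59565001-59570484 on the - strand and RFFL at chr12:40075259-40151034 on the + strand. CDK1 lies at chr14:64233945-64255290 on the + strand, KCNIP4 at chr8:15211916-16346358 and TMEM69 at chr6:165704599-165708983, both on the - strand.
PABPN1L: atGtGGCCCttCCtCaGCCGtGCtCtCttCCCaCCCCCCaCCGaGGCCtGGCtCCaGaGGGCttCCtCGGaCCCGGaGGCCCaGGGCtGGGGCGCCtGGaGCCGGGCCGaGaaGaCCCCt
UBE2S: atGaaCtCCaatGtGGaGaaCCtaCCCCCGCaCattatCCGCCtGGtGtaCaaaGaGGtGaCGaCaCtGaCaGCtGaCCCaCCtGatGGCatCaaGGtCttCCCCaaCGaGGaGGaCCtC
RFFL: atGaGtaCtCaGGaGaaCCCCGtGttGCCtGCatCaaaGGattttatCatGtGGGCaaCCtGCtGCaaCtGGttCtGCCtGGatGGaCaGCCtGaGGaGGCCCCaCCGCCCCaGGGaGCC
CDK1: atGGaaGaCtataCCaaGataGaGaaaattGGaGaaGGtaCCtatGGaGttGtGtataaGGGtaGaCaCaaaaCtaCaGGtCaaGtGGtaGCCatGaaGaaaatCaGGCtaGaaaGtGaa
KCNIP4: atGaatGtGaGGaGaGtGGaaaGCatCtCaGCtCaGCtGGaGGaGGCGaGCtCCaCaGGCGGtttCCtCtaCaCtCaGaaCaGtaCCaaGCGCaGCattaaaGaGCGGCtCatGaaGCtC
TMEM69: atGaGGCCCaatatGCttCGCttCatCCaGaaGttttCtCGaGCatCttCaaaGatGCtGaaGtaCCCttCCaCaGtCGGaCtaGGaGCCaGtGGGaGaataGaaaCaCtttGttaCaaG
Over their whole coding sequences GC content was 68.7%, 64.1% and 62.7% in the genes that fell, and 39.4%, 43.6% and 46.3% in the genes that rose. The stretches shown differ from these, most of all for KCNIP4, at 53.3%, and UBE2S, at 55%.

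In 5 classes of equal size, the median difference went from 0.04 in the class of lowest coding GC content (31.0% to 42.8%) through -0.21, -0.41 and -0.67 to -0.997 in the class of highest (56.5% to 79.3%). The genes that fell numbered 78, 157, 250, 361 and 540 in the same order, and those that rose 109, 72, 54, 35 and 28. Across genes, which are not independent replicates, Spearman's rho with the difference was -0.42 for coding GC, -0.37 for GC at the last position of codons, -0.19 for promoter GC and -0.07 for coding length. After median-ratio scaling the classes ran from 0.57 to -0.68, so the slope was kept and its level moved.

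**Figure D3:**
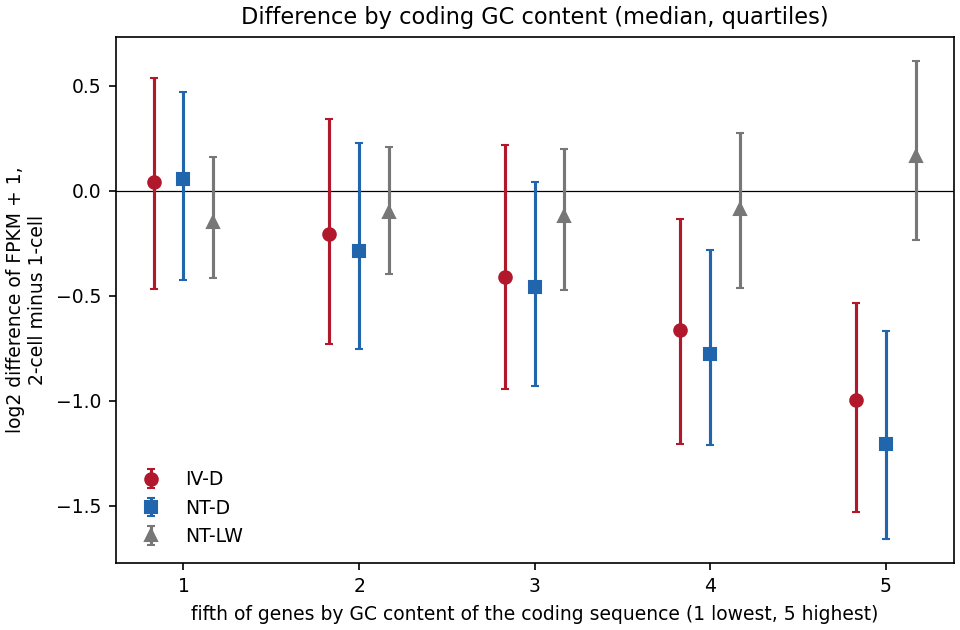
Median difference of log2(FPKM + 1), 2-cell minus 1-cell, in 5 classes of coding GC content from lowest to highest, for the IV-D, NT-D and NT-LW embryos (1 library per stage in each), with bars that span the quartiles of the genes of a class. The IV-D medians run from 0.04 down to -0.997 and the NT-D medians from 0.05 down to -1.20, while the NT-LW medians run from -0.15 up to 0.16.

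The same measure differed between libraries outside this step. The ratio of the median FPKM of the class of highest to that of the class of lowest GC content was 0.137 in oocytes, 0.324 in 1-cell, 0.124 in 2-cell, 0.172 in 4-cell and 0.123 in 8-cell IV-D embryos. The 1-cell library stood above both neighbours and near the IT library, at 0.346. From oocytes to 1-cell embryos the class medians ran from -0.26 to 0.61, and from 2-cell to 4-cell embryos from 0.08 to 0.34. These steps share the 1-cell and the 2-cell library with the first cleavage, so they are not separate evidence. With 1 library per stage, a loss of GC-rich transcripts in the embryo cannot be told apart from a difference in how the libraries took up GC-rich cDNA.

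**Figure D4:**
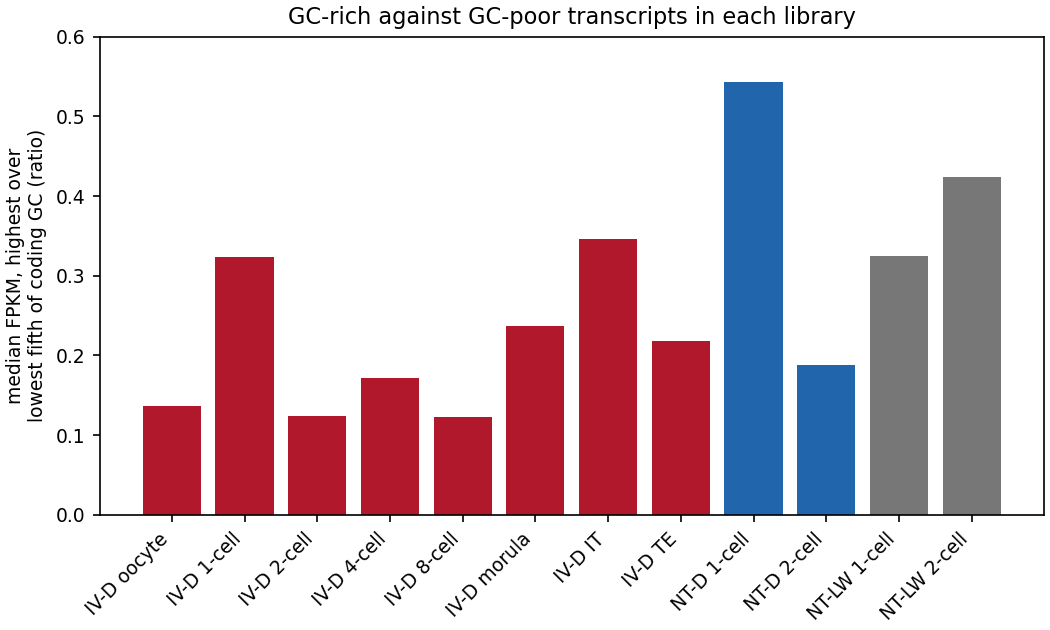
Ratio of the median FPKM of the class of highest coding GC content to that of the class of lowest, 1 bar per library, for the IV-D libraries and the 1-cell and 2-cell libraries of clones. It is 0.324 in the IV-D 1-cell and 0.124 in the 2-cell library, 0.543 and 0.188 in NT-D, and 0.325 and 0.424 in NT-LW.

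With each difference centred on the median of its class among 20 classes of coding GC content, 478 genes were lower and 609 higher. Of the 1386 falls with a coding sequence 465 remained past the fold rule, and of the 298 rises 277. That 0 turned to the other direction was fixed in advance. The medians of the 5 GC classes above, from 0.04 to -0.997, are too small for that. The remaining falls included SRSF7 (centred difference -3.23), UBE2S (-2.18) and PABPN1L (-2.12), and the remaining rises LDHA (4.17) and CDK1 (2.87). All 10 of the largest falls and all 10 of the largest rises that had a coding sequence kept their side, which their size had fixed in advance. The medians of the lists of chromatin modifiers, ribosomal proteins and poly(A) proteins were below 0 after centring, but with few calls. For lysine methylation the median was -0.26, and falls went from 13 to 3. For acetylation and remodelling it was -0.40, with falls from 12 to 5, and for DNA methylation -0.44, with falls from 6 to 0. For ribosomal proteins it was -0.32, with falls from 19 to 5, and for poly(A) binding and masking -0.49, with falls from 14 to 5 and 2 rises among the 28 with a coding sequence. The oocyte list had 5 falls and 3 rises after centring, with a median of 0.24 over the 21 with a coding sequence, and of the 11 histones and chaperones only 5 had one.

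Promoters, from 250 bases before to 50 after the RefSeq start, were searched for motifs on both strands. The CCAAT box (CCAAT), bound by NFY, was in 36.4% of promoters of genes that fell, 37.6% of those that rose and 38.0% of all compared. The GC box (GGGCGG), bound by SP1, was in 67.5%, 56.4% and 63.2%, and TATAAA in 6.93%, 11.07% and 8.13%. The E box CACGTG was in 11.4%, 6.38% and 9.99%, the cyclic AMP element TGACGTCA in 3.68%, 1.34% and 3.36%, and the NRF1 core motif in 1.80%, 2.01% and 2.06%. Over all 6878 promoters the shares were 37.7%, 63.1%, 8.36%, 10.1%, 3.26% and 1.88% in the order of these motifs. The motifs hold G and C in different shares, and a match is no evidence of binding.

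At the same step of cloned embryos, on the deposited values, more of the falls were shared by NT-D than by NT-LW libraries. In NT-D embryos 1869 of 7050 genes were lower (26.5%) and 173 higher (2.45%), with a median of -0.53. In NT-LW embryos 306 of 7096 were lower (4.31%) and 201 higher (2.83%), with a median of -0.07. Of the genes that fell in IV-D embryos, 1072 of 1634 compared were lower in NT-D (65.6%) and 103 of 1635 in NT-LW embryos (6.30%). Of those that rose, 70 of 412 were higher in NT-D (17.0%) and 13 of 411 in NT-LW embryos (3.16%). In NT-D embryos 2 of the IV-D falls were higher and 6 of the IV-D rises lower. In NT-LW embryos 100 of the 1635 falls were higher (6.12%, against 2.83% of all genes) and 11 of the 411 rises lower (2.68%, against 4.31%), so nearly as many falls were reversed as shared. After median-ratio scaling 407 of the 880 falls and 517 of the 1163 rises were shared with NT-D, and 37 and 27 with NT-LW embryos. These are parts of all IV-D calls, whether or not the gene was compared in clones. The shares of all genes called in clones on that scale are not given, so an excess over background cannot be read from them. Pearson's r of the differences across genes was 0.69 with NT-D (6579 genes) and 0.01 with NT-LW (6595 genes), as a description, since each point shares the 2 libraries of each group. NT-D also went along the GC classes from 0.05 to -1.20, and NT-LW from -0.15 to 0.16.

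Within classes of GC content the overlap with NT-D stayed above its background. In the class of lowest GC content 25 of 76 IV-D falls were lower in NT-D embryos (32.9%), against 4.78% of all genes there, and in the class of highest 442 of 534 (82.8%) against 60.3%. After centring, 166 of 475 lower genes were lower in NT-D (34.9%, background 5.93%) and 165 of 588 higher genes were higher (28.1%, background 6.29%). In NT-LW, 29 of 475 were lower (6.11%, background 3.3%) and 19 of 586 higher (3.24%, background 2.21%). No count here has an error from replicates.

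Named genes showed both patterns. CCNP went from 62.8 to 1.03 in NT-D clones and from 34.8 to 16.7 in NT-LW clones, lower in all 3 groups. UBE2S went from 207 to 34.3 in NT-D but from 137 to 302 in NT-LW embryos. SRSF7, at 16.5 and 10.6 in NT-D, and 20.1 and 9.45 in NT-LW, did not reach the low level of the IV-D 2-cell library in either. S100A4 was at 63.9 and 76.8 in NT-D, and at 76.1 and 48.2 in NT-LW, against 0.1205 in IV-D 2-cell embryos. Of the 12 largest falls 8 were lower at this step of NT-D and 5 at that of NT-LW clones. Of the 12 largest rises 1 (CCL2) was higher in NT-D clones and 0 in NT-LW clones. LDHA, at 62.2 and 56.8 in NT-D clones and 71.5 and 58.6 in NT-LW clones, stayed near its 1-cell level in both. CDK1 was at 25.9 and 52.5 in NT-D clones and at 37.8 and 55.1 in NT-LW clones, higher after cleavage in both but within the fold rule.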

How the data were processed

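The sample was polyadenylated RNA of pooled embryos, 1 library per stage and group. Per the labels and the submitters' processing notes, reads were aligned to Sscrofa11.1 with HISAT2 2.0.4 and counted with HTSeq 0.9.1. The notes also name DESeq. The authors deposited the result as FPKM values for 8603 genes, 7371 with a symbol, in a table whose name calls them differentially expressed. Counts of genes hold within that table. Nothing further was scaled in the main result.

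Whole fragments were recovered from the steps of the FPKM values for 100% of genes (largest relative deviation 9.54e-08), as in simulated data. Depth was 14952784 to 22991067 fragments over the 23 libraries, and a value on few fragments is given with a 95% counting interval or, at 0, against a floor of 3 fragments. Genes were compared where FPKM was at least 1 in either library and called where log2(FPKM + 1) differed by more than 1. The pseudocount of 1 understates changes of low genes. No p-value between stages exists with 1 library a side. On simulated data the recovery returned the fragments put in, and the GC centring took out a planted slope. The fold rule was checked on planted changes with the sampling of fragments as the only noise, and it can miss falls of low genes.

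Named genes were the 12 largest falls and 12 largest rises among symbol-bearing genes at FPKM 10 or more, the 8 most abundant genes per library, the 6 highest first-expressed genes, and in each of 27 lists up to 4 members of largest change past the fold rule and the 2 of highest level. The lists were written from general knowledge. Members, lists and rules were chosen with earlier results of these data known. Coding sequences, promoters and positions came from the RefSeq annotation of Sscrofa11.1 by symbol, for 6878 genes.

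The settings varied were the pseudocount (0.1), the minimum FPKM (5 or none), a difference over 2, median-ratio scaling over all or both libraries, a trimmed mean (30% of log ratios and 5% of levels left out at each end), rescaling to a sum of 1000000, and other gene sets. Centring on 20 classes of coding GC, and leaving out marker lists or genes without a coding sequence, were added after the data were seen. Computation ran in python 3.11.15 with pandas 2.3.3, numpy 2.4.6 and scipy 1.17.1, and plots in matplotlib 3.10.9.

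Some genes that the rule for named genes selects are not reported here.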

Additional observations from a re-analysis of the deposited data

Results flagged for a closer look

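Among the 12 largest falls, 3 genes moved past the fold rule in opposite directions in IV-D and NT-LW embryos. UBE2S had a difference of -3.31 in IV-D and 1.14 in NT-LW embryos on the scale of log2(FPKM + 1). PABPN1L was at -3.25 and 1.11, and RFFL at -3.06 and 1.16. With 1 library a side the difference between the groups was not tested. These 3 genes have the highest coding GC content of the 10 falls, among the 12, that had a coding sequence. The class of highest GC content had a median of -0.997 in IV-D and 0.16 in NT-LW embryos. The part of GC content in these 3 genes was not tested.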

How the results depend on the processing

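No paired analysis was possible because each stage has 1 library, and no replicate could be left out. The counts of rises and falls and the median difference depended on scaling. Under median-ratio scaling over all libraries they were 1163, 880 and 0.073, under the ratio of both libraries alone 835, 1049 and -0.091, and under a trimmed mean 1051, 877 and 0.039, against 442, 1652 and -0.41 as deposited. Past a difference of 2 they were 70 and 240. Centring on coding GC left 478 falls and 609 rises. The overlaps moved likewise. The falls shared with NT-D were 407, 538 and 426 under the 3 scalings in that order, the shared rises 517, 341 and 472, the falls shared with NT-LW 37, 49 and 42, and the rises 27, 24 and 27. Overlaps under the 3 scalings have no share of all genes beside them. After GC centring the falls shared with NT-D were 166, the rises 165, and the falls shared with NT-LW 29. With a pseudocount of 0.1 the falls and rises shared with NT-LW were 191 and 29, with rescaling to a common sum the falls 222, and among genes with a coding sequence the rises 6. The median of the trophectoderm list, -1.06, became 0.014 with no minimum on FPKM, which adds genes at or near 0. The 119 named genes past the fold rule kept their direction under these scalings, rescaling to a common sum and a pseudocount of 0.1. So did 111 of 111 with a coding sequence after GC centring. For genes past the fold rule this was nearly fixed in advance, since the shifts were small and a pseudocount cannot reverse a direction. Of the 119, 103 stayed past the fold rule under median-ratio scaling, and 110 and 105 under the other 2 scalings. After GC centring 82 of 111 did. Depth fixes the abundant genes closely and says nothing of variation between pools of embryos.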

Other observations

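Some of the largest differences were in genes without a symbol, which the rule for named genes left out, so these were chosen after their values were seen. ENSSSCG00000019556 went from 24.6 in 1-cell to 1643 in 2-cell embryos and ENSSSCG00000020439 from 2.58 to 287. ENSSSCG00000012100 went from 399 to 5.61 and ENSSSCG00000008676 from 198 to 5.26. What these genes encode is not given in the sources used here.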
